A study of Rattus norvegicus with 12 samples.

Results

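The genes described are those of the interstitial matrix of the kidney and of the fibroblasts and related cells that make it. They were chosen by name: 44 genes for fibrillar and other collagens, glycoproteins and elastic fibre proteins, proteoglycans, matricellular proteins, collagen-modifying enzymes and mesenchymal cells were looked up among the probes of the array, and each gene was read from its brightest probe. Of the 44 genes, 41 had a probe, out of 12725 genes that a probe named singly, and Col3a1, Thbs1 and Acta2 were not analysed here. The probes of 39 of these genes were bright enough to be tested. Lum and Pdgfra were left out because each lay above background on no young array and on fewer than 4 of the 12 arrays. The arrays, 12 one-colour CodeLink arrays in 3 groups of 4, measured kidney RNA from males of Fischer 344, an inbred rat strain kept in an ageing colony. The young group was 4 months old and fed ad libitum, that is, without limit. The aged ad libitum group was 24 months old and fed in the same way. The aged restricted group was 24 months old and calorie-restricted: restriction began at 10 weeks of age at 10%, reached 25% at 15 weeks and was 40% from 4 months on. The labels name no transgene and no drug, and no group of young restricted rats was among these samples. The comparisons bear on kidney ageing and on lifelong restriction, the subjects named in the series title and design.

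The interstitium is the space between the tubules and the vessels of the kidney. Fibroblasts and pericytes lie in it and secrete procollagens, which are hydroxylated inside the cell, trimmed outside it and assembled into fibrils that lysyl oxidases crosslink. Glycoproteins such as fibronectin and tenascin, small proteoglycans such as decorin, and the elastic fibre proteins bind to these fibrils and to cells, and the matricellular proteins bind both without being a main structural part. An increase of interstitial matrix is a well-known feature of the ageing kidney.

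Several arrays of a group were so alike that they were also counted as 1 sample. The SD of the log2 difference between arrays, over bright probes, was 0.09 to 0.13 between the 4 ad libitum arrays. Ad libitum arrays 1, 2 and 3 differed by no more than repeat spots of 1 array, and array 4 did so from array 3 but lay just beyond the limit against array 1 (0.127, limit 0.124) and array 2 (0.129, limit 0.125). Joined through array 3, the 4 arrays were counted as 1 sample, and in a check added after the data had been seen array 4 was kept as a sample of its own, which gave 6 samples. It was 0.13 to 0.14 between restricted arrays 1 and 3 and between 2 and 4, and 0.10 to 0.12 between young arrays 1 and 2 and between 3 and 4, so that these were joined in pairs. Restricted arrays of different pairs differed by 0.16 to 0.22, and young arrays of different pairs by 0.32 to 0.37. Each comparison was therefore tested over the 12 arrays, where the spread behind each p is that between arrays and may be technical, and again over 5 samples, with the ad libitum group as a single sample assumed to vary like the others. Changes below are differences of mean log2 intensity ± SE over the 5 samples, the adjusted p in parentheses is that of limma over the 12 arrays, and "passed" refers to the 12 arrays unless the 5 samples are named. Slide series and scan were inferred here from parts of the image name in the header of each array report. By that reading the ad libitum arrays and restricted arrays 3 and 4 came from one series of slides. The young arrays and restricted arrays 1 and 2 came from another. The ad libitum arrays also formed a scan of their own on this reading, so that scan and group cannot be told apart there. The young and restricted arrays shared a scan. The share of probes above background was 64.2% to 69.9% in the young group, 71.5% to 73.7% in the ad libitum group and 72.5% to 74.8% in the restricted group, and the part of this difference in the results was not tested.

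Most of the 39 genes were higher in aged than in young kidney, on either diet. In the aged ad libitum group 27 genes were higher than in the young group, 4 were lower and 8 did not pass. Mfap4, Postn and Cthrc1 are among the 27. They were above background on 0, 1 and 1 of the 4 young arrays, so that they were bright enough to be tested only through the aged arrays. The background for this comparison was high, since 48.1% of all 25398 probes passed, 20.9% higher and 27.1% lower. The genes that rose by at least 2-fold numbered 17, where 6.58% of all probes did so, and no gene fell by that much. The median change over the 39 genes was 0.71, against -0.05 over all probes. Over the 5 samples 0 of 39 genes passed in limma, and 29 probes of the whole array, or 0.114%, passed. An unadjusted p under 0.05 was found for 17 of the genes, all higher, and for 17.1% of all probes. The lowest adjusted p among the genes was then 0.0550, that of Cthrc1. With ad libitum array 4 as a sample of its own 14 genes passed, all higher, where 11.5% of all probes passed.

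In the aged restricted group 28 genes were higher than in the young group, 1 was lower and 10 did not pass, where 44.3% of all probes passed, 19.7% higher and 24.6% lower. Mfap4, Postn and Cthrc1 are again among the 28. A rise of at least 2-fold was seen in 19 genes, against 6.08% of all probes, and the median change was 1.01, against -0.02 over all probes. Over the 5 samples 9 of 39 genes passed, all of them higher: Col24a1, Col8a1, Col15a1, Fn1, Tnc, Fbln1, Cthrc1, Mgp and Vim. In the whole array 231 probes, or 0.91%, passed over the 5 samples, and the 9 genes had adjusted p between 0.0253 and 0.0428. The lowest was that of Cthrc1, which was bright enough to be tested only through the aged arrays. Its pass is therefore no support for a change. With ad libitum array 4 as a sample of its own 17 genes passed, all higher, where 10.1% of all probes passed.

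Between the diets at 24 months the changes were smaller and ran mostly upwards. In the restricted group 12 genes were higher than in the ad libitum group, Dcn alone was lower among the genes that passed, and 26 did not pass, where 13.4% of all probes passed, 7.39% higher and 5.98% lower. The median change was 0.30, against 0.01 over all probes, and Postn alone rose by at least 2-fold, as 0.799% of all probes did. Over the 5 samples 0 of 39 genes passed in limma, and 0 probes of the whole array did. An unadjusted p under 0.05 was found for 3 of the genes and for 4.75% of all probes, so that the genes lay near the background. With ad libitum array 4 as a sample of its own 0 genes passed in limma, where 0.177% of all probes did, and 14 genes had an unadjusted p under 0.05, as 11.1% of all probes had. The count of 13 was 8 without ad libitum array 3 and between 9 and 15 without any other single array. The 3 comparisons share groups, so that their changes are not independent of each other.

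**Figure D1:**
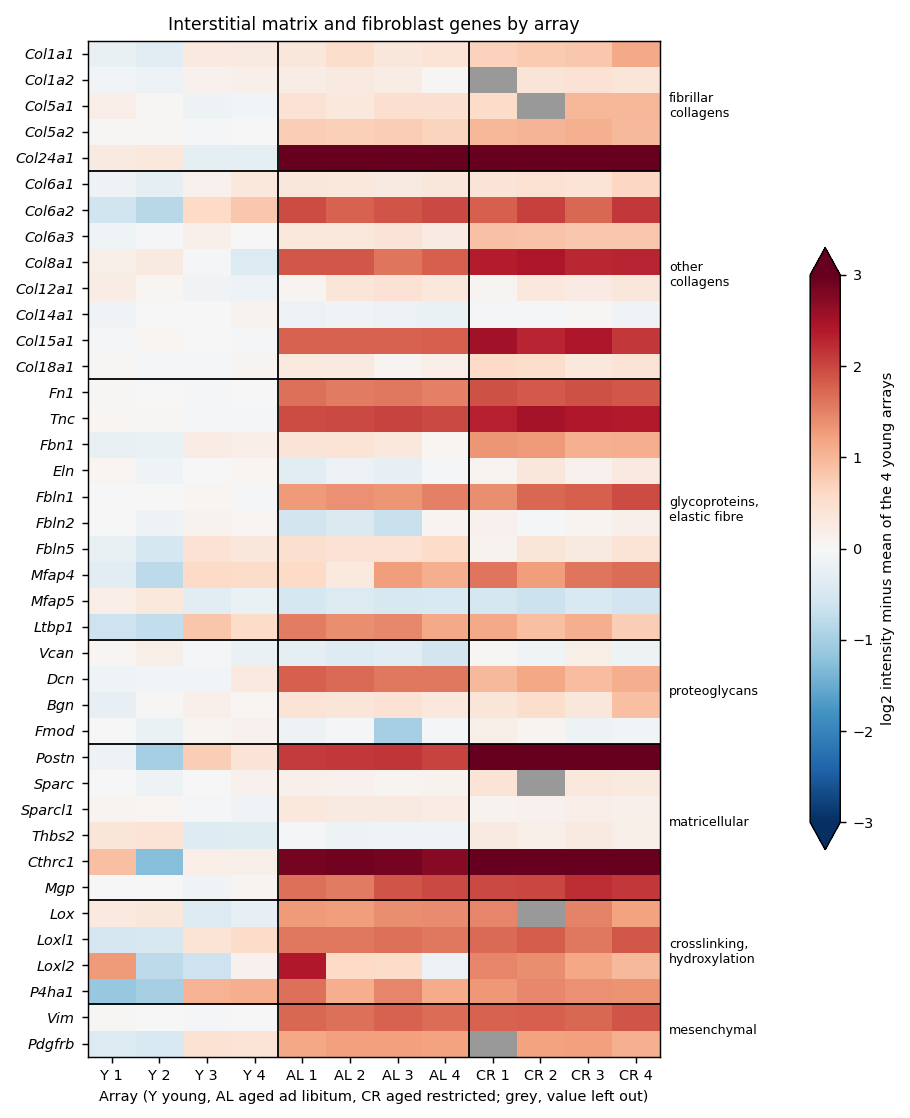
Heat map of the 39 tested genes (rows, by role) on the 12 arrays (columns), as log2 intensity minus the mean of the 4 young arrays, with colours ending at 3 in either direction and grey for values left out. The 8 aged arrays are red for most rows, deepest in Col24a1, Cthrc1 and Postn, and young arrays 1 and 2 differ from young arrays 3 and 4 in rows such as Col6a2 and P4ha1.

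The scaling of the arrays moved these changes. When each array was scaled by its median in place of quantile normalisation, the median change over all probes was -0.22 between ad libitum and young, -0.06 between the diets and -0.26 between restricted and young. The share of calls that were higher fell with it, from 43.6% to 28.3%, from 55.3% to 43.2% and from 44.6% to 24.1%. Under that scaling 21 of the 39 genes were higher and 5 lower between ad libitum and young, 5 higher and 1 lower between the diets, and 24 higher and 6 lower between restricted and young. The median over the genes was then 0.41, 0.14 and 0.62, above that of all probes in each comparison.

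**Figure D2:**
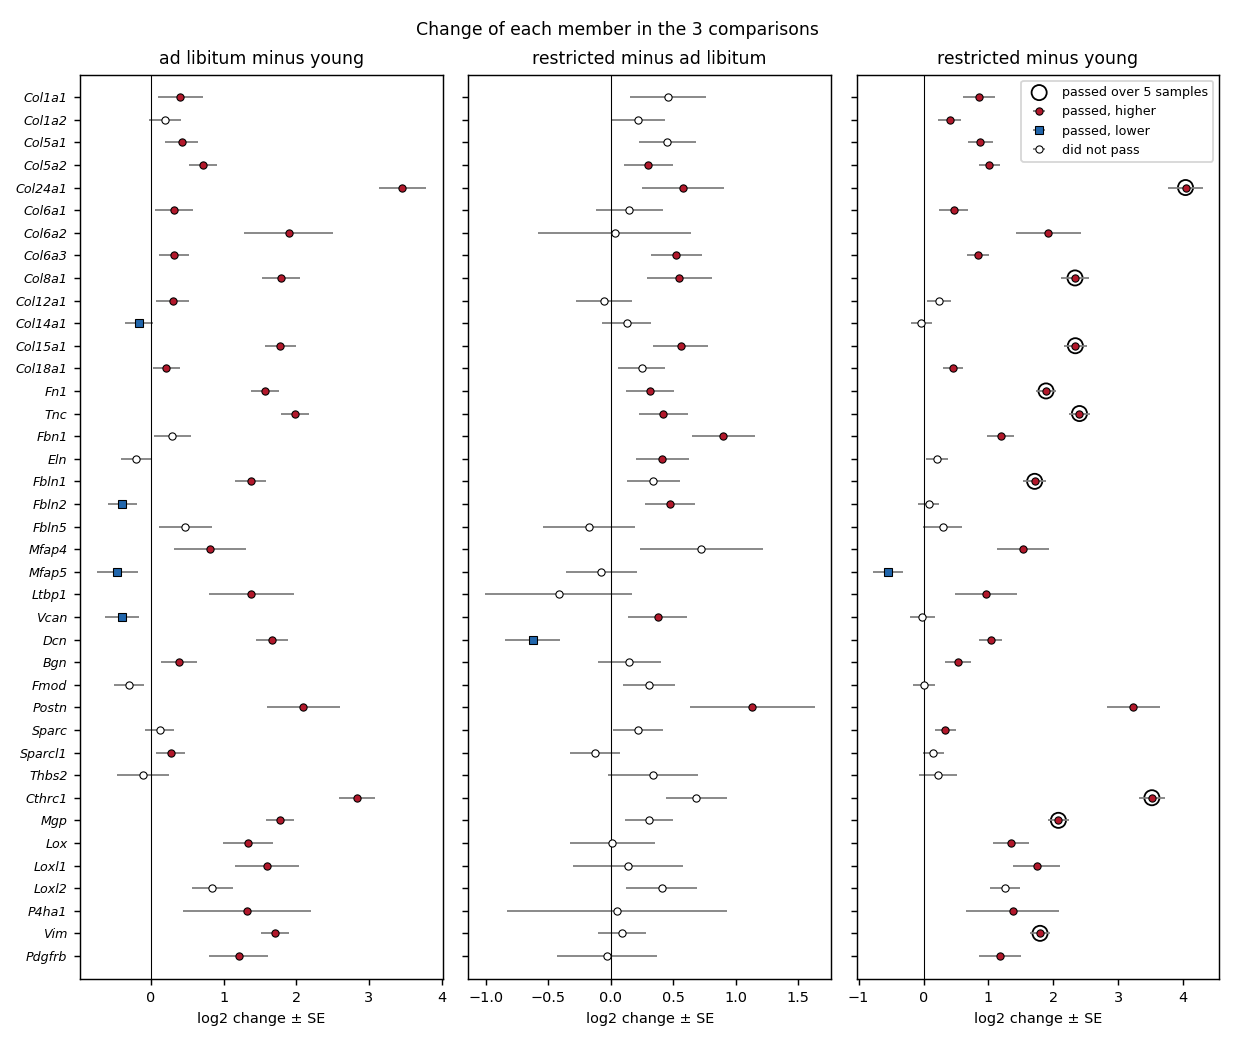
Change of each of the 39 genes in log2 intensity in the 3 comparisons, with bars of 1 SE over 5 samples and axes that differ between panels. Filled marks passed over the 12 arrays (red circles higher, blue squares lower), open circles did not pass, and the 9 ringed genes, all in the restricted against young panel, also passed over the 5 samples.

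Fibrillar collagens, which form the load-bearing fibrils, were measured by 5 genes, and 4 of them were higher in the ad libitum than in the young group, 5 in the restricted than in the young group and 2 in the restricted than in the ad libitum group. Col24a1 encodes the chain of type XXIV collagen, a fibrillar collagen described in mouse bone. Its log2 intensity was 8.09, 8.15, 7.55 and 7.54 on the young arrays, 11.29, 11.32, 11.42 and 11.15 on the ad libitum arrays and 12.08, 11.86, 12.00 and 11.53 on the restricted arrays. The young arrays lay far below all aged arrays, and the restricted arrays lay above the ad libitum arrays without overlap. Groups without overlap were common on these arrays: 45.5% of all probes between ad libitum and young, 32.5% between the diets and 40.8% between restricted and young. Of the 39 genes 23 were higher without overlap and 3 lower in the first, 21 and 4 in the second, and 29 and 1 in the third. Each statement of no overlap is to be read against these shares. Col24a1 was higher by 3.46 ± 0.33 (adjusted p = 5.83e-08) in ad libitum than in young kidney, by 4.04 ± 0.27 (adjusted p = 2.47e-08) in restricted than in young kidney and by 0.57 ± 0.33 (adjusted p = 0.0402) in restricted than in ad libitum kidney. A dimmer probe for Col24a1 did not show this, with a change of -0.38 (adjusted p = 0.233) between ad libitum and young and 0.25 (adjusted p = 0.439) between restricted and young, so that the rise rests on 1 of its probes. The call between the diets was lost when any of 7 arrays was left out.

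Col5a2, a chain of the type V collagen that helps to start collagen fibrils, had the brightest probe of the fibrillar collagens. On the log2 scale it read 10.58, 10.56, 10.46 and 10.52 on the young arrays, 11.26, 11.25, 11.27 and 11.20 on the ad libitum arrays and 11.53, 11.55, 11.59 and 11.51 on the restricted arrays. The 3 groups did not overlap, in the order young, ad libitum, restricted. Col5a2 was higher by 0.71 ± 0.19 (adjusted p = 2.68e-06) in ad libitum than in young kidney and by a further 0.30 ± 0.19 (adjusted p = 0.00489) in restricted kidney. Its partner chain Col5a1 was higher by 0.42 ± 0.23 (adjusted p = 0.0122) in ad libitum and by 0.88 ± 0.19 (adjusted p = 4.17e-04) in restricted than in young kidney, and with slide series as a block the first of these changes was -0.020. Col1a1 and Col1a2 encode the chains of type I collagen, the main collagen of scar. Col1a1 was higher by 0.40 ± 0.30 (adjusted p = 0.0439) in ad libitum and by 0.86 ± 0.25 (adjusted p = 9.02e-04) in restricted than in young kidney. Col1a2 changed by 0.19 ± 0.22 (adjusted p = 0.105) in ad libitum kidney, which did not pass, and was higher by 0.41 ± 0.18 (adjusted p = 0.00776) in restricted kidney, a rise that turned to -0.14 when arrays were scaled by their median. Both genes read lower on young arrays 1 and 2 than on young arrays 3 and 4, and the call for Col1a1 between ad libitum and young was lost when any of 9 of the 12 arrays was left out.

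Among the 8 other collagens, 7 were higher and Col14a1 was lower in ad libitum than in young kidney, 6 were higher in restricted than in young kidney and 3 were higher in restricted than in ad libitum kidney. Col15a1 encodes type XV collagen, which lies where basement membranes meet the interstitium. Its level (log2) was 8.36, 8.46, 8.41 and 8.36 on the young arrays, 10.18, 10.17, 10.17 and 10.19 on the ad libitum arrays and 10.91, 10.68, 10.82 and 10.51 on the restricted arrays. The ad libitum arrays lay close together and stood apart from both other groups. Col15a1 was higher by 1.78 ± 0.22 (adjusted p = 5.06e-08) in ad libitum and by 2.34 ± 0.18 (adjusted p = 8.94e-09) in restricted than in young kidney, and by 0.56 ± 0.22 (adjusted p = 0.00134) in restricted than in ad libitum kidney. Its other probes gave 2.06 and 2.14 between ad libitum and young, which passed, and 0.33 and 0.47 between the diets, which did not.

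Col8a1 encodes a chain of type VIII collagen, a network-forming collagen of vessel walls. Values by array were 6.04, 6.14, 5.83 and 5.45 on the young arrays, 7.74, 7.74, 7.47 and 7.67 on the ad libitum arrays and 8.23, 8.29, 8.13 and 8.16 on the restricted arrays. The 3 groups did not overlap. Col8a1 was higher by 1.79 ± 0.26 (adjusted p = 1.78e-06) in ad libitum and by 2.33 ± 0.21 (adjusted p = 2.66e-07) in restricted than in young kidney, with 0.55 ± 0.26 (adjusted p = 0.0194) between the diets. The last of these calls was lost without ad libitum array 3 or restricted array 2.

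The chains of type VI collagen, which forms beaded filaments around cells, did not move by the same amount. Col6a2 read 5.71, 5.48, 6.91 and 7.12 on the young arrays, 8.25, 8.06, 8.20 and 8.28 on the ad libitum arrays and 8.10, 8.36, 8.03 and 8.43 on the restricted arrays. Young arrays 1 and 2 lay more than 1 below young arrays 3 and 4, which is reflected in the SE, and the aged groups overlapped each other. Col6a2 was higher by 1.89 ± 0.61 (adjusted p = 6.69e-04) in ad libitum and by 1.92 ± 0.50 (adjusted p = 6.34e-04) in restricted than in young kidney, with 0.03 ± 0.61 (adjusted p = 0.968) between the diets, which did not pass. Col6a3 had the brightest probe of the 3 chains and read 10.89, 10.99, 11.19 and 11.04 on the young arrays, 11.34, 11.35, 11.41 and 11.28 on the ad libitum arrays and 11.91, 11.90, 11.84 and 11.83 on the restricted arrays. It rose by 0.52 ± 0.20 (adjusted p = 7.84e-04) between the diets, with no overlap. It also rose by 0.32 ± 0.20 (adjusted p = 0.00406) between young and ad libitum, which turned to -0.10 when arrays were scaled by their median, and by 0.84 ± 0.17 (adjusted p = 5.68e-06) between young and restricted. Col6a1 was higher by 0.31 ± 0.27 (adjusted p = 0.0463) in ad libitum than in young kidney, which turned to -0.0013 under the same scaling, and by 0.46 ± 0.22 (adjusted p = 0.00856) in restricted than in young kidney.

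Col18a1, whose product is cut to release endostatin, was higher by 0.21 ± 0.19 (adjusted p = 0.0405) in ad libitum than in young kidney, which turned to -0.10 when arrays were scaled by their median, and by 0.46 ± 0.16 (adjusted p = 7.08e-04) in restricted than in young kidney. Col12a1 and Col14a1 encode collagens that sit on the surface of type I fibrils. Col12a1 was higher by 0.30 ± 0.23 (adjusted p = 0.0375) in ad libitum than in young kidney, with overlapping groups. Col14a1 fell by 0.16 ± 0.20 (adjusted p = 0.0494) on its brightest probe but was higher by 1.47 (adjusted p = 0.0118) on the other one, so that its direction is not settled by these arrays. The calls for Col6a1, Col12a1, Col14a1 and Col18a1 between ad libitum and young were each lost when any of 7 to 10 of the arrays was left out.

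Of the 10 glycoproteins and elastic fibre genes, 5 were higher and 2 lower in ad libitum than in young kidney, 6 were higher and 1 lower in restricted than in young kidney, and 5 were higher in restricted than in ad libitum kidney. Tnc encodes tenascin-C, a glycoprotein scarce in most adult tissue and made during repair. Its log2 intensity was 10.32, 10.30, 10.21 and 10.25 on the young arrays, 12.22, 12.26, 12.30 and 12.25 on the ad libitum arrays and 12.60, 12.77, 12.68 and 12.65 on the restricted arrays. The groups did not overlap, and the spread within each was small beside the gaps between them. Tnc was higher by 1.98 ± 0.19 (adjusted p = 2.25e-09) in ad libitum and by 2.40 ± 0.16 (adjusted p = 9.60e-10) in restricted than in young kidney, and by 0.42 ± 0.19 (adjusted p = 0.00109) between the diets. Its second probe gave 2.96 (adjusted p = 1.99e-07) between ad libitum and young but -0.05 (adjusted p = 0.89) between the diets, so that the first change was found with both probes and the second with 1.

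Fn1 encodes fibronectin, which binds collagens and integrins. It was higher by 1.57 ± 0.19 (adjusted p = 8.01e-09) in ad libitum and by 1.89 ± 0.16 (adjusted p = 3.32e-09) in restricted than in young kidney. The difference of 0.31 ± 0.19 (adjusted p = 0.00432) between the diets was 0.07 (adjusted p = 0.9) on its second probe. Fbln1 encodes fibulin-1, a fibronectin and elastin binding protein, and was higher by 1.37 ± 0.21 (adjusted p = 2.48e-06) and 1.71 ± 0.17 (adjusted p = 5.21e-07) in the ad libitum and restricted groups than in the young group. Ltbp1, whose product holds latent TGF-beta in the matrix, was higher by 1.38 ± 0.59 (adjusted p = 0.00398) and 0.96 ± 0.48 (adjusted p = 0.0262), with a second probe at -0.07 (adjusted p = 0.908) and 0.49 (adjusted p = 0.389). The call for Ltbp1 in restricted kidney was lost when any of 4 arrays was left out.

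Fbn1 encodes fibrillin-1, the backbone of microfibrils, and differed mainly between the diets. On the log2 scale it read 9.81, 9.84, 10.26 and 10.23 on the young arrays, 10.43, 10.43, 10.36 and 10.08 on the ad libitum arrays and 11.36, 11.31, 11.11 and 11.12 on the restricted arrays. All restricted arrays lay above all other arrays, while the ad libitum and young arrays overlapped. Fbn1 was higher by 0.90 ± 0.25 (adjusted p = 9.91e-04) in restricted than in ad libitum kidney and by 1.19 ± 0.21 (adjusted p = 3.09e-05) in restricted than in young kidney, and its change of 0.29 ± 0.25 (adjusted p = 0.079) between ad libitum and young did not pass. Eln, the gene of elastin itself, was also higher in restricted than in ad libitum kidney, by 0.41 ± 0.21 (adjusted p = 0.00904). Its changes against young kidney were -0.20 ± 0.21 (adjusted p = 0.0706) and 0.21 ± 0.17 (adjusted p = 0.0647), neither of which passed.

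Fbln2 encodes fibulin-2, found in vessel walls and on microfibrils. It read 5.86, 5.70, 5.96 and 5.91 on the young arrays, 5.31, 5.41, 5.19 and 5.93 on the ad libitum arrays and 5.99, 5.83, 5.93 and 6.00 on the restricted arrays. Ad libitum array 4 lay with the young and restricted arrays, and the other 3 lay below. Fbln2 fell by 0.39 ± 0.20 (adjusted p = 0.0351) from young to ad libitum kidney and was higher by 0.48 ± 0.20 (adjusted p = 0.0431) in restricted than in ad libitum kidney, and each call was lost when any of 6 or 8 arrays was left out. Fbln5 encodes fibulin-5, needed for elastic fibre assembly, and had the brightest probe of these 10 genes. It read 11.44, 11.13, 12.09 and 12.00 on the young arrays, 12.15, 12.09, 12.09 and 12.21 on the ad libitum arrays and 11.78, 12.03, 11.95 and 12.08 on the restricted arrays. Young arrays 3 and 4 lay with the aged arrays and young arrays 1 and 2 below them, and no comparison passed, with 0.47 ± 0.37 (adjusted p = 0.0519) between ad libitum and young.

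Mfap4 and Mfap5 encode microfibril-associated proteins and moved apart. Mfap4 was above background on none of the young, 2 of the ad libitum and 4 of the restricted arrays. It passed as higher in both aged groups (adjusted p = 0.0478 and 0.0021). It was bright enough to be tested only through the aged arrays, so that these calls are no support for a change. Against the background of the young arrays it was at least 1.25-fold higher in restricted kidney. No fold is given for ad libitum kidney, where the call was lost when any of 9 arrays was left out. A lower bound of this kind sets the mean of the brighter group against the lowest signal above background on the dim arrays. Mfap5 fell by 0.47 ± 0.28 (adjusted p = 0.011) from young to ad libitum kidney and fell by 0.54 ± 0.23 (adjusted p = 0.00511) from young to restricted kidney.

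**Figure D3:**
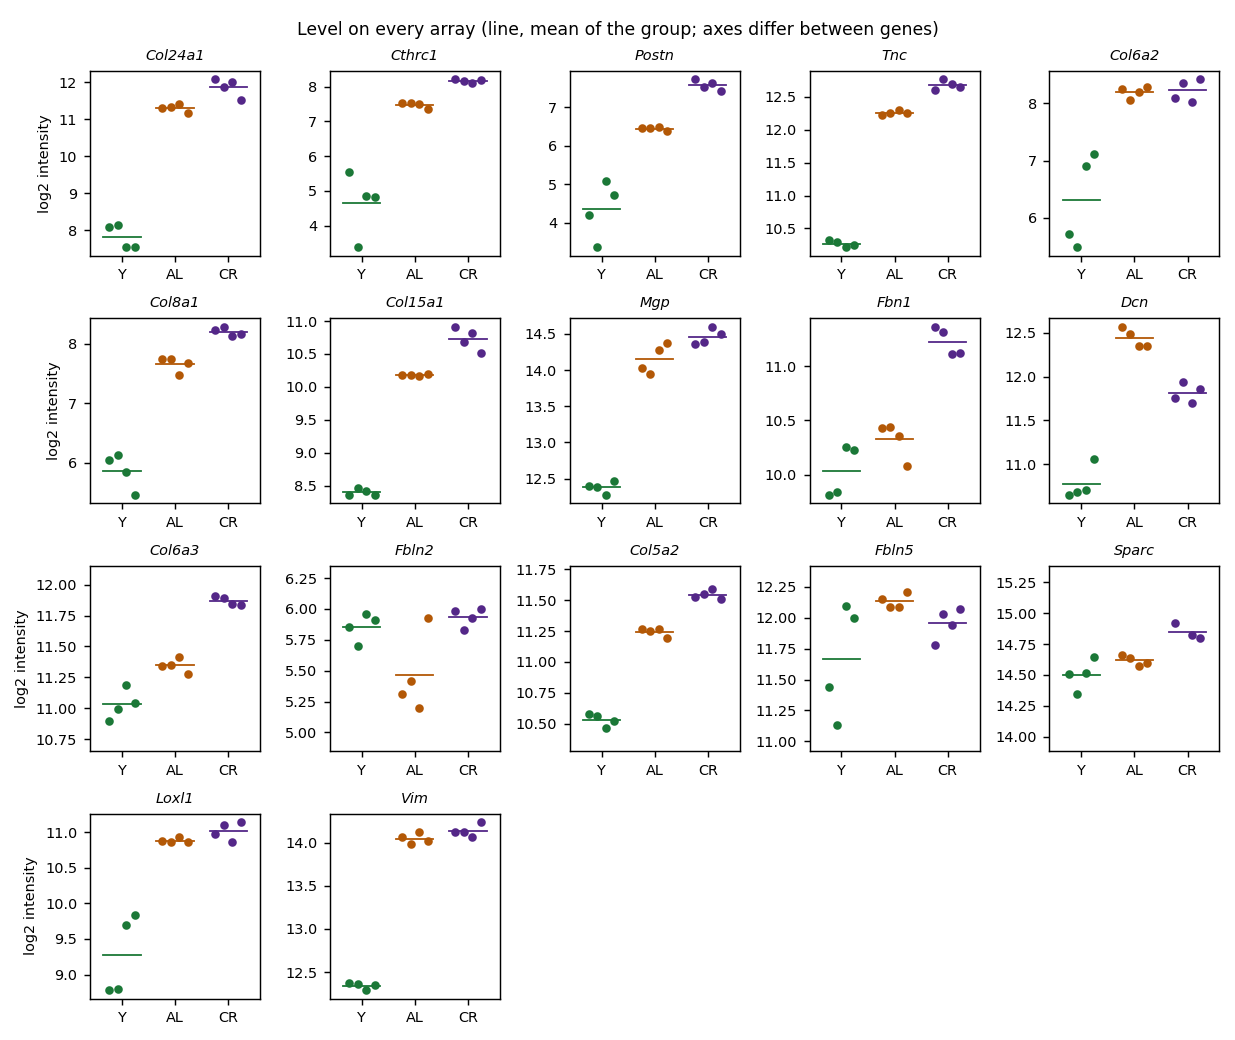
Log2 intensity on every array of the 17 genes given in full, 1 point per array, with a line at each group mean; Y is young, AL aged ad libitum and CR aged restricted, and the axes differ between genes. The young points of Col6a2, Fbln5 and Loxl1 form separate pairs, Dcn is lower in CR than in AL, and Fbn1 stands out in CR.

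Among the proteoglycans 4 genes were tested. Dcn encodes decorin, which binds collagen fibrils and TGF-beta and is made by fibroblasts, and it had the brightest probe of the group. Its level (log2) was 10.65, 10.69, 10.71 and 11.07 on the young arrays, 12.57, 12.48, 12.35 and 12.35 on the ad libitum arrays and 11.75, 11.94, 11.69 and 11.86 on the restricted arrays. The 3 groups did not overlap, in the order young, restricted, ad libitum. Dcn was higher by 1.66 ± 0.22 (adjusted p = 4.29e-07) in ad libitum and by 1.03 ± 0.18 (adjusted p = 1.84e-05) in restricted than in young kidney, and it fell by 0.63 ± 0.22 (adjusted p = 0.00246) from ad libitum to restricted kidney. With slide series held constant, between the ad libitum arrays and restricted arrays 3 and 4, the difference was -0.66 (adjusted p = 0.00863). Scan still differed between these groups, and this p rests on the spread between arrays, which may be technical.

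Bgn encodes biglycan, a close relative of decorin. It was higher by 0.38 ± 0.25 (adjusted p = 0.0266) in ad libitum and by 0.53 ± 0.21 (adjusted p = 0.00582) in restricted than in young kidney, and the first call was lost when any of 4 arrays was left out. Vcan encodes versican, a large proteoglycan that binds hyaluronan. It fell by 0.40 ± 0.24 (adjusted p = 0.00909) from young to ad libitum kidney and was higher by 0.38 ± 0.24 (adjusted p = 0.0341) in restricted than in ad libitum kidney. The second of these calls was lost when any of 6 arrays was left out. Its second probe gave 0.55 (adjusted p = 0.373) and -0.34 (adjusted p = 0.716), with neither change passing. Fmod, the gene of fibromodulin, passed in no comparison and was above background on 2 of the 4 young arrays. Lum, the gene of lumican, was above background on 2 restricted arrays and on no other.

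Of the 6 matricellular genes 4 were higher in ad libitum and 4 in restricted than in young kidney, and Postn alone passed between the diets. Postn encodes periostin, a collagen-binding protein of remodelling tissue. Values by array were 4.20, 3.36, 5.09 and 4.73 on the young arrays, 6.45, 6.46, 6.48 and 6.37 on the ad libitum arrays and 7.73, 7.52, 7.63 and 7.41 on the restricted arrays. Only 1 of the 4 young arrays was above background, and the 3 groups did not overlap. Since 3 of the young values were at background, the size of a change from young kidney is uncertain, and with young values taken no lower than the lowest signal above background the changes were 1.38 and 2.51 in ad libitum and restricted kidney. On the values as measured Postn was higher by 2.10 ± 0.50 (adjusted p = 1.57e-04) in ad libitum and by 3.23 ± 0.41 (adjusted p = 7.38e-06) in restricted than in young kidney, and by 1.13 ± 0.50 (adjusted p = 0.0232) between the diets. The call between the diets was lost when any of 7 arrays was left out, with adjusted p up to 0.0608. Within the slide series that held both diets the change was 1.08 (adjusted p = 0.00148). There too scan differed between the groups and the p rests on the spread between arrays.

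Cthrc1 encodes a secreted protein that was described in injured rat arteries. It read 5.54, 3.38, 4.85 and 4.83 on the young arrays, 7.52, 7.53, 7.51 and 7.37 on the ad libitum arrays and 8.22, 8.16, 8.11 and 8.18 on the restricted arrays. Again 1 of the 4 young arrays was above background, and the groups did not overlap. With the same limit on the young values, its changes from young kidney were 2.38 and 3.06. As measured, Cthrc1 was higher by 2.83 ± 0.24 (adjusted p = 6.38e-05) in ad libitum and by 3.52 ± 0.20 (adjusted p = 1.44e-05) in restricted than in young kidney, and the 0.68 ± 0.24 (adjusted p = 0.223) between the diets did not pass. Young arrays 1 and 2, at 5.54 and 3.38, were averaged in the 5 samples, so that their difference is not in these SE. Over the 12 arrays the SE of each change was 0.34. Its pass over the 5 samples rests on young values mostly at background. Mgp encodes matrix Gla protein, an inhibitor of calcification. It read 12.40, 12.39, 12.27 and 12.46 on the young arrays, 14.03, 13.95, 14.28 and 14.37 on the ad libitum arrays and 14.36, 14.38, 14.60 and 14.50 on the restricted arrays. All aged arrays lay above all young arrays, and the aged groups overlapped at their edges. Mgp was higher by 1.77 ± 0.19 (adjusted p = 2.26e-07) and 2.08 ± 0.16 (adjusted p = 8.54e-08) in the ad libitum and restricted groups than in the young group.

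Sparc encodes osteonectin, a collagen-binding protein, and had the brightest probe of the matricellular genes. It read 14.51, 14.35, 14.51 and 14.64 on the young arrays, 14.67, 14.64, 14.57 and 14.60 on the ad libitum arrays and 14.92, 14.82 and 14.80 on the restricted arrays, restricted array 2 being left out for its flag. The spot was saturated on ad libitum array 4 and on the 3 restricted arrays with a value, so that its level there is only a lower limit. Its change between ad libitum and young, 0.12 ± 0.20 (adjusted p = 0.212), did not pass, and the rise of 0.33 ± 0.16 (adjusted p = 0.00571) in restricted kidney turned to -0.44 when arrays were scaled by their median. The dimmer probe of Sparc gave 1.11 (adjusted p = 6.97e-05) and 1.26 (adjusted p = 3.00e-05). Sparcl1, a relative of Sparc, was higher by 0.27 ± 0.20 (adjusted p = 0.00377) in ad libitum than in young kidney, which turned to -0.19 under that scaling. Thbs2, the gene of thrombospondin-2, passed in no comparison, and its difference from young kidney changed sign with the pair of young arrays left out.

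The enzymes that crosslink and hydroxylate collagen were higher in aged kidney, with 3 of 4 genes passing on each diet, and their changes between the diets, from 0.01 to 0.41, did not pass. Loxl1 encodes a lysyl oxidase needed for elastic fibres, and had the brightest probe. It read 8.78, 8.80, 9.69 and 9.83 on the young arrays, 10.87, 10.86, 10.93 and 10.86 on the ad libitum arrays and 10.97, 11.10, 10.86 and 11.14 on the restricted arrays. Young arrays 1 and 2 lay about 1 below young arrays 3 and 4, and both pairs lay below all aged arrays. Loxl1 was higher by 1.60 ± 0.44 (adjusted p = 1.59e-04) in ad libitum and by 1.74 ± 0.36 (adjusted p = 9.44e-05) in restricted than in young kidney. Lox, the gene of the main lysyl oxidase, was higher by 1.33 ± 0.34 (adjusted p = 1.30e-04) and 1.35 ± 0.28 (adjusted p = 1.76e-04), and it read higher on young arrays 1 and 2 than on young arrays 3 and 4. P4ha1 encodes a catalytic subunit of the prolyl hydroxylase that stabilises the collagen helix. It was higher by 1.33 ± 0.88 (adjusted p = 0.0363) and 1.37 ± 0.72 (adjusted p = 0.0333), with young arrays 1 and 2 at 5.35 and 5.49 and young arrays 3 and 4 at 7.55 and 7.59, close to the ad libitum mean of 7.82. Both calls for P4ha1 were lost when any of 6 arrays was left out. Loxl2 was above background on no young array and did not pass.

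Both tested mesenchymal cell genes were higher in aged kidney on either diet, and neither passed between the diets. Vim encodes vimentin, the intermediate filament of mesenchymal cells and leukocytes, and of injured tubule cells. Its log2 intensity was 12.38, 12.36, 12.29 and 12.35 on the young arrays, 14.07, 13.99, 14.12 and 14.02 on the ad libitum arrays and 14.12, 14.13, 14.07 and 14.24 on the restricted arrays. The young arrays lay far below the aged arrays, and the aged groups overlapped each other. Vim was higher by 1.70 ± 0.19 (adjusted p = 8.01e-09) in ad libitum and by 1.80 ± 0.16 (adjusted p = 7.41e-09) in restricted than in young kidney, with 0.09 ± 0.19 (adjusted p = 0.389) between the diets. Pdgfrb encodes the PDGF receptor of pericytes, mesangial cells and fibroblasts, and was higher by 1.20 ± 0.40 (adjusted p = 9.40e-04) and 1.17 ± 0.33 (adjusted p = 0.00192). Pdgfra, the other PDGF receptor and a fibroblast marker, was above background on 1 ad libitum array and on no other. Whole kidney was measured, so that fewer or more cells of a type and less or more RNA per cell cannot be told apart.

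For 16 of the 41 genes the array held several probes, and for 14 of them several were tested. The probes gave the same call for 9 of the 14 genes between ad libitum and young, for 8 between the diets and for 11 between restricted and young. Calls in opposite directions occurred for Col14a1 between ad libitum and young. Where probes differed in size the dimmer one often showed the larger rise: Col5a1 gave 1.55, Col6a1 1.62 and Mgp 2.69 between ad libitum and young. For Col1a1 the second probe passed between the diets, at 0.82 (adjusted p = 1.84e-04), where the brightest probe did not.

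**Figure D4:**
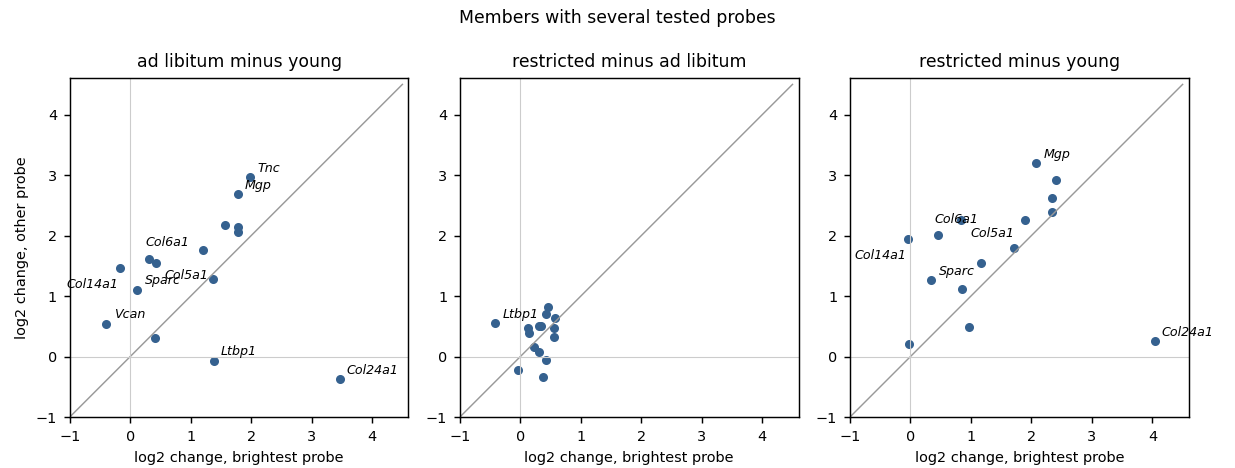
Log2 change by the brightest probe of a gene (horizontal) against that by each other tested probe of the same gene (vertical), for the 14 genes with several tested probes, with the line of equality and names where the probes differ by more than 0.8. Most points lie above the line in the 2 comparisons with young kidney, while Col24a1 and Ltbp1 lie below it.

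Young arrays 1 and 2 stood apart from young arrays 3 and 4 by at least 0.5 in 14 of the 39 genes and by at least 1 in 5: Col6a2, Mfap4, Ltbp1, Postn and P4ha1. In these 5 genes young arrays 3 and 4 were nearer to the aged groups. Without young arrays 3 and 4, 32 genes passed between ad libitum and young and 31 between restricted and young, where 63.6% and 62.1% of all probes passed. Without young arrays 1 and 2 the counts were 25 and 30, against 45.2% and 42.2% of all probes. Between the diets 22 genes passed without young arrays 3 and 4 and 23 without young arrays 1 and 2, against 13 with all arrays. The share of all probes that passed rose as well, from 13.4% to 28.8% and 30.7%.

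Within a slide series the comparisons could be made on fewer arrays, a check added after the data had been seen. Between the ad libitum arrays and restricted arrays 3 and 4, which still differed in scan, 15 of 39 genes passed, 14 higher and Dcn lower, against 16.4% of all probes. Between the young arrays and restricted arrays 1 and 2, which also shared a scan, 16 of 34 genes passed, all higher, against 14% of all probes. Tnc was higher by 2.41, Col15a1 by 2.40 and Col24a1 by 4.14 in that comparison, close to the values over all arrays. With slide series as a block in the fit of all arrays, 15 of the 39 genes passed between ad libitum and young, against 15.4% of all probes.

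Further genes of matrix production were counted by list, to be read against the 48.1%, 44.3% and 13.4% of all probes that passed between ad libitum and young, between restricted and young and between the diets. Of 14 tested genes for collagen processing, 7 were higher in ad libitum than in young kidney, led by Serpinh1, the collagen chaperone, at 1.63 ± 0.48, P3h1 at 1.62 ± 0.78 and Pcolce at 0.47 ± 0.19. In restricted against young kidney 6 were higher and 2 lower, led by P3h1 at 1.48 ± 0.63, Plod2, a lysyl hydroxylase, at 0.73 ± 0.17 and Pcolce at 0.67 ± 0.16. Between the diets 2 were higher and 1 lower: Serpinh1 fell by 1.04 ± 0.48 under restriction, and Bmp1, the procollagen protease, and Plod2 were higher by 0.35 ± 0.22 and 0.33 ± 0.21.

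Of 27 further matrix proteins tested, 12 were higher and 2 lower in ad libitum than in young kidney and 11 higher and 3 lower in restricted than in young kidney. Ltbp2, which encodes a microfibril protein, was higher by 2.62 ± 0.31 and 3.24 ± 0.25, and passed over the 5 samples in the second comparison. Ccn2, also known as connective tissue growth factor, was higher by 2.09 ± 0.55 in ad libitum kidney, Col11a1 by 1.52 ± 0.72 and 1.71 ± 0.59, and Col16a1 by 1.77 ± 0.22 in restricted kidney. The share that passed was 51.9% in both, near that of all probes. Between the diets 2 were higher and 2 lower, or 14.8%, also near that of all probes, with changes of -0.82 ± 0.45 in Thbs4, -0.43 ± 0.22 in Prelp and 0.34 ± 0.19 in Ltbp4.

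Of 9 tested receptors for collagen and matrix, 8 were higher in ad libitum and 4 in restricted than in young kidney. Cd44, the hyaluronan receptor, was higher by 2.94 ± 0.32 and 2.88 ± 0.26 and passed over the 5 samples in the second. Itgb1, the common beta chain of collagen and fibronectin receptors, was higher by 2.30 ± 1.09 and 2.20 ± 0.89, with wide errors, Itgb5 by 1.27 ± 0.78 in ad libitum kidney and Itga11 by 1.49 ± 0.18 in restricted kidney. Between the diets Itga11 and Itga1, the alpha chains of collagen receptors, were higher by 0.84 ± 0.22 and 0.81 ± 0.42, and Itgav fell by 0.66 ± 0.24. Of 16 further mesenchymal and mural cell genes, 5 were higher and 1 lower in ad libitum than in young kidney and 6 higher in restricted than in young kidney, or 37.5% in each, below the share of all probes. Tagln, a smooth muscle protein, was higher by 1.53 ± 0.72 and 1.83 ± 0.59, and Pdpn by 1.56 ± 0.49 and 1.61 ± 0.40. Mcam was higher by 1.40 ± 0.70 in ad libitum kidney and S100a4 by 1.28 ± 0.18 in restricted kidney. The probes of Pdpn and Itgb5 were dim, with means of 4.84 and 4.87 (log2) and signal above background on 8 arrays each. How these arrays were spread over the groups is not given here. Young values may lie at background, so that the size of the rises in Pdpn and Itgb5 is uncertain. Their calls are weak support for a change. Cnn1, another smooth muscle protein, and Rgs5, a pericyte gene, were higher by 0.84 ± 0.25 and 0.53 ± 0.21 in restricted than in ad libitum kidney.

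Markers of the cell types that a kidney sample holds were read in the same way. Of the 7 fibroblast-like markers 6 had a probe, of which Lum and Pdgfra were near background. All 6 are among the genes described above, so that they are no separate readout. Linear intensity summed over Dcn, Col1a1, Lum and Pdgfra, the 4 with a value on every array, was 2435 to 3309 in young kidney. It was 6480 to 7313 in ad libitum and 5023 to 5850 in restricted kidney, and Dcn gave most of it. Between the diets Dcn fell. Col1a1, Col1a2 and Pdgfrb changed by 0.46 ± 0.30, 0.22 ± 0.22 and -0.03 ± 0.40, which did not pass. The 10 leukocyte-like markers summed to 7987 to 9591, 19751 to 20287 and 19771 to 20982. Of these 10, 8 were higher in ad libitum than in young kidney, or 80%. In restricted against young kidney 8 were higher and 1 lower, or 90%. Between the diets 1 was lower, or 10%, and the other 9 did not pass. The shares of all probes that passed were 48.1%, 44.3% and 13.4%, so that the diet count lay near that of all probes. Leukocyte-like markers thus moved with the matrix genes between young and aged kidney, and their part in those results was not tested. The 4 mural cell-like markers summed to 5100 to 5953, 6489 to 6811 and 6974 to 7979, and the 7 endothelium-like markers to 12940 to 13729, 12559 to 13280 and 12271 to 12943. Among the mural cell-like markers 1 was higher and 1 lower in ad libitum than in young kidney. In restricted kidney 2 were higher than in young and 2 than in ad libitum kidney, or 50% in each comparison. Among the endothelium-like markers 1 was higher and 1 lower in ad libitum than in young kidney, or 28.6%. In restricted kidney 1 was lower than in young kidney, or 14.3%, and 2 were lower than in ad libitum kidney, or 28.6%.

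Of the 12 tubule markers 10 were above background on every array and Aqp1 on 11. Slc34a1 was bright, at 14.8 to 15.0 (log2) on the 8 arrays with a value. Its spots on the other arrays were left out for their flags, not for low signal. The 5 proximal tubule-like markers with a value on every array summed to 31073 to 42639 in young, 36178 to 38768 in ad libitum and 36541 to 39596 in restricted kidney. Lrp2 gave most of that sum. Of 6 tested, 2 were higher and 1 lower in ad libitum than in young kidney, or 50%. In restricted against young kidney 1 was higher and 1 lower, or 33.3%, and between the diets 1 was lower, or 16.7%. All probes passed at 48.1%, 44.3% and 13.4%. The 6 loop and distal tubule-like markers summed to 42608 to 52999, 40895 to 45360 and 58268 to 62252, and 3 of them were higher in restricted than in ad libitum kidney. The adipocyte-like markers went both ways: of 4 tested, 1 was higher and 1 lower in ad libitum and 1 higher and 2 lower in restricted than in young kidney. Their summed intensity was lower in aged kidney, at 4644 to 6609, 2105 to 2305 and 1770 to 1902. Cidec gave most of that sum, with log2 readings of 12.1 to 12.6 on the young and 10.5 to 10.9 on the aged arrays. Fabp4 went the other way, from 5.9 to 6.1 on the young arrays to 6.6 to 7.8 on the aged arrays. Of 5 collecting duct-like markers 2 were lower in ad libitum and 2 in restricted than in young kidney, or 40% in each, near the share of all probes. Their sum was 5231 to 6539 in young, 4125 to 4681 in ad libitum and 4523 to 5158 in restricted kidney. Of 4 tested podocyte-like markers 1 was higher in each comparison with young kidney, or 25%. Of 2 tested urothelium-like markers 0 passed. Between the diets 0 markers of the collecting duct, podocyte and urothelium lists passed. Of the 4 tested adipocyte-like markers 1 was lower between the diets, or 25%, where 13.4% of all probes passed. Of 4 tested skeletal muscle-like markers 3 were higher in ad libitum than in young kidney, or 75%, where 48.1% of all probes passed. In restricted against young kidney 2 were higher, or 50%, where 44.3% of all probes passed. None of the 4 passed as lower than in young kidney in the restricted group, but Ckm read 6.3 to 6.4 on the young arrays and 5.6 to 6.2 on the restricted arrays. Between the diets 1 of the 4 was lower, or 25%, where 13.4% of all probes passed. Their sum was 479 to 511, 711 to 812 and 681 to 862, while Myh4 and Mb were not above background on any array. The part of these markers in the results for the matrix genes was not tested.

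Promoters are shown for genes that passed over the 5 samples, because these genes rose together. RefSeq entries of the GRCr8 build were matched for 25 of the 41 genes, with 28 promoters in all, and 4 of the 9 genes that passed over the 5 samples in restricted kidney had a single entry. The 250 bases before the start of transcription are given 5′ to 3′ on the strand of the gene, with capitals at matches, on either strand, to TATAAA (the TATA box), CCAAT (the CCAAT box), GGGCGG (the GC box), TGANTCA (the AP-1 site) or GGAATG (the TEAD site).
Col15a1 (chr5:66297296-66297545, plus strand): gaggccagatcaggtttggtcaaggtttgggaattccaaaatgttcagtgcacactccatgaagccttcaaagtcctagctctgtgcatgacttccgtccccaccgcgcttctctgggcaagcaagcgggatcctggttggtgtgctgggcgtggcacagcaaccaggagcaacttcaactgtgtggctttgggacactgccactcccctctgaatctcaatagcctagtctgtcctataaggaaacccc
Tnc (chr5:82476132-82476381, minus strand): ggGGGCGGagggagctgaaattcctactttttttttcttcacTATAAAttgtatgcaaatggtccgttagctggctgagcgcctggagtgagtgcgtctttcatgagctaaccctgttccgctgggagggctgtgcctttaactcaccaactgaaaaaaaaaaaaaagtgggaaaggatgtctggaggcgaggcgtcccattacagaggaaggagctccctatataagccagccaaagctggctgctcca
Col8a1 (chr11:56246532-56246781, plus strand): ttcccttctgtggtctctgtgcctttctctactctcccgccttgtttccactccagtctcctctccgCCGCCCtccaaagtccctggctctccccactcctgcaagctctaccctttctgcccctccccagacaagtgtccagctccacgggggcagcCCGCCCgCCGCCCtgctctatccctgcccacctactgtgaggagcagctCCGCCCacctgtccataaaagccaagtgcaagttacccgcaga
Vim (chr17:81577011-81577260, plus strand): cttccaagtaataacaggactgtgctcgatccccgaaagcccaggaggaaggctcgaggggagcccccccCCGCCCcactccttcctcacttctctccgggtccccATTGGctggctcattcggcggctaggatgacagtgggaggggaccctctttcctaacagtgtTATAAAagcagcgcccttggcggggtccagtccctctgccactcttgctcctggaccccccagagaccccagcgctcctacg
The promoter of Col8a1 held 4 matches to GGGCGG, that of Vim 1 TATAAA, 1 CCAAT and 1 GGGCGG, and that of Tnc 1 TATAAA and 1 GGGCGG, while that of Col15a1 held no match to the 5 motifs in this window. Counted from the start of transcription, the TATAAA match began at -208 in Tnc and at -82 in Vim. A match is one of letters only, and whether any of them acts as a site was not tested. Over the 28 promoters of the listed genes 12 held GGGCGG, 8 CCAAT, 4 TATAAA, 4 GGAATG and 2 TGANTCA. Among all 33469 rat promoters of the same length the shares were 30.5%, 34.0%, 12.9%, 12.1% and 6.3%. The 4 genes shown were higher by 1.80 to 2.40 on the log2 scale in restricted than in young kidney, and they had no motif of the 5 in common in this window.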

How the data were processed

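RNA from whole kidney was measured on 12 arrays, grouped by the labels' descriptions. The deposited array reports give a background-subtracted intensity per spot on a linear scale, with a quality flag, written by CodeLink Expression Analysis 4.1.0.29054 per the file headers, which name median normalisation and a 20% threshold trim. The authors' value table, also deposited, holds a ratio, each median-scaled intensity divided by a constant of its probe, and served as an alternative; its column medians lay between 0.942 and 1.21, and what the constant is stays unknown. Flagged spots (contaminated, irregular or masked) were treated as missing. The 33849 gene probes were quantile normalised, floored at 7.70 and put on a log2 scale, which is not that of the deposited files. Probes above background on at least 4 arrays and with at least 2 values per group were tested, 25398 in all.

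Groups were compared with limma 3.58.1 (R 4.3.3; Python 3.11.15 for tables and figures), two-sided, with 1 mean per group and Benjamini-Hochberg adjustment over all tested probes at 0.05. Arrays of a group were joined in a second fit where pairs within the 95% limit of repeat spots linked them, directly or through another array, and 5 samples remained. The procedure was tested on simulated data. Probes were named by the platform annotation (16878), by RefSeq accession (183) or by description (27); 182 probes had several symbols and 16579 none. The labels call the arrays of a group biological replicates.

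The members, lists and tests were chosen with earlier results of these data known. Values on every array are given for the 8 members that passed with the largest change in each comparison and for the brightest member of each role; of the further lists at most 3 passing genes per comparison are named. Replicate numbers did not pair the arrays: deviations from the group means correlated between -0.18 and 0.15 for the same number and between -0.23 and 0.22 for different numbers. The number of arrays limits the precision, and their signal over background is given in the report.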

Additional observations from a re-analysis of the deposited data

Results flagged for a closer look

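In 5 of the 112 sets of 4 array values examined, 1 array lay farther from the other 3 than Dixon's 95% limit allows, where chance flags about 1 in 20 such sets. Dcn read 11.07 on young array 4 and 10.65 to 10.71 on the other young arrays. Fmod read 4.17 on ad libitum array 3 against 5.02 to 5.13 on the others of that group. Thbs2 read 8.34 on ad libitum array 1 against 8.24 to 8.26. Cthrc1 read 7.37 on ad libitum array 4 against 7.51 to 7.53. Loxl1 read 10.93 on ad libitum array 3 against 10.86 to 10.87. The differences in Cthrc1 and Loxl1 are small beside their changes between young and aged kidney. That in Thbs2 is about as large as its change of -0.11 between ad libitum and young kidney, which did not pass.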

How the results depend on the processing

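Of 31 genes that passed between ad libitum and young, 13 of the diet comparison and 29 between restricted and young, 22, 8 and 27 passed with each array left out in turn. The counts ran from 23 to 30, from 8 to 15 and from 27 to 30 when 1 array was left out. Over the 5 joined samples they were 0, 0 and 9, and 14, 0 and 17 with ad libitum array 4 kept as a sample of its own, an alternative chosen after seeing the data. Over the 12 arrays with a change of at least 2-fold they were 17, 1 and 19. With slide series as a fixed block the first count was 15, and within slide series 2 alone the third was 16. The diet count was 6 under array median scaling, 6 with the authors' value table, 8 without restricted arrays 2 and 4, 22 without young arrays 3 and 4 and 23 without young arrays 1 and 2. With the replicate number as a block the counts were 29, 13 and 30; since the numbers did not pair the arrays, this says nothing of the effects. Under every other setting run the counts stayed within 1.5 times those reported. Joining the arrays leaves fewer samples by construction, and what else moves these counts was not tested.

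Directions turned in a minority of genes. Array median scaling and the authors' value table turned, between ad libitum and young, Col6a3 (-0.10 and -0.092), Col18a1 (-0.10 and -0.093), Sparc (-0.38 and -0.37) and Sparcl1 (-0.19 and -0.18), and the first alone Col6a1 (-0.0013). Between restricted and young they turned Col1a2 (-0.14 and -0.056), Eln (-0.30 and -0.29), Fbln5 (-0.34 and -0.33), Sparc (-0.44 and -0.43) and Sparcl1 (-0.47 and -0.46). The mean over all tested probes turned Col14a1 (0.59 and, between restricted and young, 0.95) and Vcan (0.075). Slide series as a block turned Col5a1 (-0.020). Thbs2 was 0.27 without young arrays 1 and 2 between ad libitum and young and -0.16 without young arrays 3 and 4 between restricted and young. The cause was not tested, beyond the shift of all probes given with the scaling. Signal near background limits Mfap4, Loxl2, Postn, Cthrc1, Lum and Pdgfra in young kidney, and saturation limits Sparc. The ad libitum group adds little or no spread to the joined fits, and scan and group cannot be told apart for it.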
